A study of Mus musculus with 6 samples.

Results

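The ferlins are a family of 6 mouse genes, Otof, Dysf, Myof, Fer1l4, Fer1l5 and Fer1l6, and their transcripts were followed in brain RNA of 6 adult male C57BL/6 mice. They are 6 of the 43346 gene rows of the deposited count table, found by symbol, and 3 of them are among the 15030 genes with enough counts to be tested. Brains were compared between 3 Kdm6a deficient mice, bred from females with loxP sites at Kdm6a and males with the Thy1-Cre transgene, and 3 wild-type littermates. Thy1 drives Cre mainly in neurons, so other brain cells can keep the gene, and the sources used here do not say whether the wild-type littermates carried loxP sites or Cre. Kdm6a encodes a histone demethylase that acts on lysine 27 of histone H3. The labels name the brain and no region of it. The family was chosen because Otof was past a false discovery rate (FDR) of 5% in this very comparison, so the values of its members are given as a description. The p-values quoted for Otof are those of the fit that chose it and are no independent test.

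Ferlins are large proteins with several C2 domains, which bind calcium and membrane lipids, and a single membrane anchor at the carboxyl end. Otoferlin, the product of Otof, is the calcium sensor that inner hair cells of the ear use to release transmitter, where it stands in for the synaptotagmins of brain synapses, and its loss causes deafness. Dysferlin (Dysf) reseals tears in the muscle membrane, and its loss causes muscular dystrophy. Myoferlin (Myof) acts in the fusion of myoblasts and in endothelial cells. The roles of Fer1l4, Fer1l5 and Fer1l6 are less well described.

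Otof has a pair of annotated protein-coding transcripts whose coding sequences end in different exons, and the deposited counts hold 1 row for the gene. Otof-201 has 47 exons and 5991 coding bases, the last of them in exon 46, and Otof-202 has 47 exons and 5976 coding bases, the last of them in exon 47. These ends encode the membrane anchor, and each is 178 bases long, on the minus strand of chromosome 5 (GRCm38) at chr5:30370101-30370278 for Otof-201 and chr5:30367863-30368040 for Otof-202. They are shown because a gene-level count cannot say which end was made in these brains, and capitals mark the 59 positions at which they differ.
Otof-201: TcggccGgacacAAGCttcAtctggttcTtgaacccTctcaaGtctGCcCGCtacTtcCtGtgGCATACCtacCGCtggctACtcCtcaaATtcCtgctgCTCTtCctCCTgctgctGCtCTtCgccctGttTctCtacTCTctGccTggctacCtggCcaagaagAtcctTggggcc
Otof-202: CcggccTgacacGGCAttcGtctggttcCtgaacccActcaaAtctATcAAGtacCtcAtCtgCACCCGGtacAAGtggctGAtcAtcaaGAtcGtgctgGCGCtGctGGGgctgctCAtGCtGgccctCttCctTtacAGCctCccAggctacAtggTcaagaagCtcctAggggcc
Over the 178 bases the ends were 66.9% identical.

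The coding sequences of the ferlins are well apart from each other. In pairwise alignments of the longest coding sequence of each gene, identity was highest between Otof and Fer1l6, at 65.5%, followed by Dysf and Myof at 65.2%, and lowest between Fer1l4 and Fer1l5 at 57.3%. The longest exact run shared by any pair was the 21 bases common to Dysf and Myof, followed by 20 bases common to Fer1l4 and Fer1l6. Otof shared at most 18 bases with another ferlin, a length reached with both Fer1l6 and Fer1l4. The runs of Otof with Fer1l6 and of Dysf with Myof are shown in capitals with the coding bases on either side, since these are the pairs of highest overall identity. They start at base 1675 of the Otof, 1159 of the Fer1l6, 3636 of the Dysf and 3540 of the Myof coding sequence, counted from the start codon.
Otof: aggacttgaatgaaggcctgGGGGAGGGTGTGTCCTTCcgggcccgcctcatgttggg
Fer1l6: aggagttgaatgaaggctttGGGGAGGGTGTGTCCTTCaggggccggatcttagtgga
Dysf: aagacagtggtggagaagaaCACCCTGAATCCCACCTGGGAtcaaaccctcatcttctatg
Myof: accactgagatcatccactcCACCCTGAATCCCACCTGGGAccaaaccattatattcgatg
No 50-base stretch of an annotated Otof, Myof, Fer1l4 or Fer1l6 transcript occurred in a transcript of another gene, on either strand.

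The 6 genes lie on 6 chromosomes (GENCODE M21, GRCm38). Otof lies on the minus strand of chromosome 5 from 30367062 to 30461932 and Dysf on the plus strand of chromosome 6 from 84008590 to 84211060. Myof is on the minus strand of chromosome 19 from 37899036 to 38043577, and Fer1l4 on the minus strand of chromosome 2 from 156019139 to 156052947. Fer1l5 is on the plus strand of chromosome 1 from 36372291 to 36422110, and Fer1l6 on the plus strand of chromosome 15 from 58510048 to 58665092. Exons of Otof and Myof overlap no exon of another annotated gene. Dysf shares 105 exonic bases with the antisense gene Gm33024 and 352 with the antisense gene Gm15475, of which Gm15475 had 0 counts in all 6 mice and Gm33024 has no row. Fer1l5 shares 103 exonic bases with Lman2l on the opposite strand, a gene with 770 to 1061 counts per mouse, so the few Fer1l5 counts are uncertain.

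The libraries held 18542590 to 24531408 counts. Kdm6a, the targeted gene, had 500, 621 and 515 counts in deficient mice 1, 2 and 3, against 777, 647 and 821 in wild-type mice 1, 2 and 3, and stood at 70.1% of the wild-type level (log2 fold change -0.51, SE 0.07). Levels are given as CPM, the usual scaling of counts to library size, here with sizes adjusted by TMM. Marker lists put the tissue as brain and held little of the ear or of muscle. The 9 neuron markers summed to 8127 to 8462 CPM in deficient and 8211 to 8338 CPM in wild-type mice. The 10 hair cell markers summed to 7.18 to 10.97 CPM in deficient and 8.21 to 11.6 CPM in wild-type mice, with Gfi1 at 0 in every mouse and Pou4f3, which defines hair cells, at 0 to 5 counts. Most of that sum was Lhfpl5, with 101 to 166 counts per mouse, and Myo15 had 8 to 62 and Strc 9 to 30. The 9 muscle markers summed to 4.59 to 5.49 CPM in deficient and 4.60 to 5.61 CPM in wild-type mice. Desmin (Des) was the highest of them with 34 to 58 counts, Acta1 had 13 to 27 and Myl1 2 to 28, and the muscle creatine kinase gene Ckm had at most 3.

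Otof, the calcium sensor gene, was lower in each Kdm6a deficient brain than in any wild-type brain. It was counted 426, 547 and 384 times in deficient mice 1, 2 and 3, against 637, 551 and 729 in wild-type mice 1, 2 and 3. Scaled to library size, these were 19.0, 22.2 and 18.8 CPM in deficient mice 1, 2 and 3, against 28.3, 29.8 and 30.5 CPM in wild-type mice 1, 2 and 3. Deficient mouse 2 was the highest of its group, and a wide gap separated it from wild-type mouse 1, the lowest of the other. The mean was 20.01 ± 1.91 CPM in deficient and 29.5 ± 1.15 CPM in wild-type mice (SD, n = 3 each), a log2 fold change of -0.56 (SE 0.08) or 67.9% of the wild-type level. In bulk tissue, fewer cells with Otof transcripts and less transcript per cell cannot be told apart.

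The edgeR adjusted p of Otof, 0.0108, is the value for which the family was chosen and is no separate support. Otof was 1 of 7 genes past 5% FDR, 0.0466% of the genes tested, and 1 of 5 that were lower, 0.0333%. It was the only ferlin among them, and it ranked 5 by p. Without wild-type mouse 2 its adjusted p was 0.0557, and over 12 alternatives it ran from 1.06e-05 to 0.0557, under 0.05 in 11 of them. The lowest value came from edgeR with no filter on low counts, which called 25 genes in all. The alternatives refit the mice that chose Otof, so they are no separate support either. The log2 fold change ran from -0.64 without deficient mouse 2 to -0.52 without deficient mouse 3. In the authors' deposited table the log2 fold change of Otof was 0.33 (SE 0.06) as wild type over deficient, with an adjusted p of 4.63e-05 and rank 4 among 18 genes under 0.05. The same columns of the authors' deposited table, wild type over deficient, gave 0.14 (SE 0.05) for Dysf and 0.10 (SE 0.05) for Myof. DESeq2 run here on the same counts gave -0.56 (SE 0.10) for Otof, -0.46 (SE 0.18) for Dysf and -0.32 (SE 0.18) for Myof, as deficient over wild type. The sizes of the deposited fold changes are therefore not comparable with those given here. Whether the deposited values were shrunken towards 0 was not tested.

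**Figure D1:**
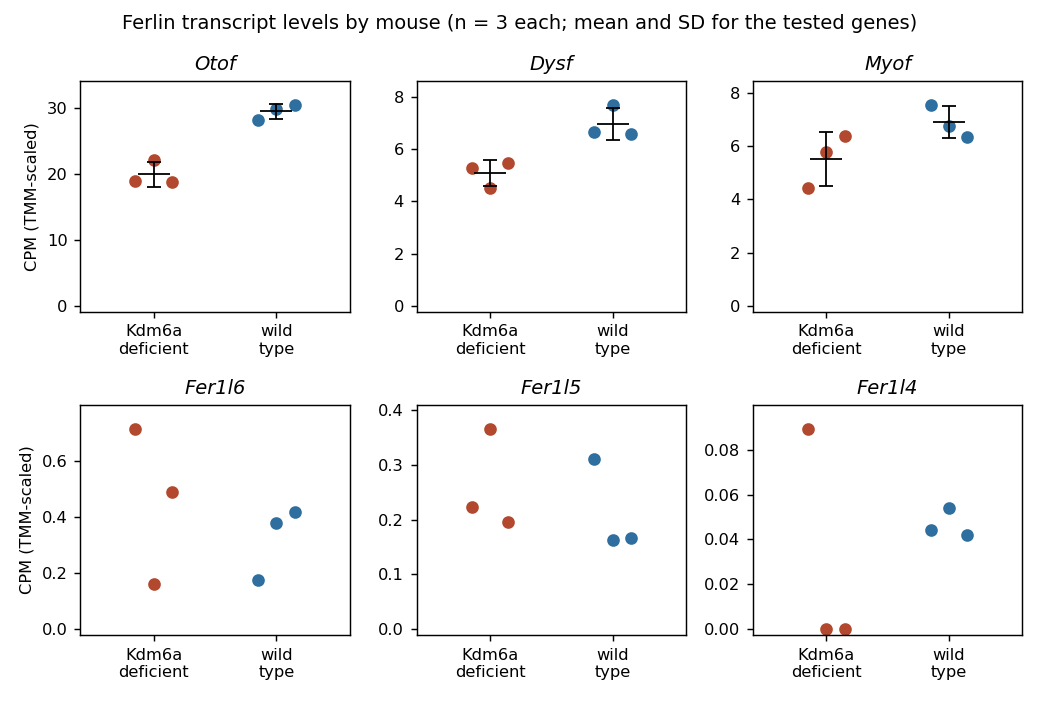
Level of each ferlin transcript in CPM (y axis, from 0, a scale of its own in each panel) in Kdm6a deficient mice (left in each panel) and wild-type mice (right). Points are mice, and bars give the mean and SD of the tested genes. Otof and Dysf had all 3 deficient mice below all 3 wild-type mice, Myof overlapped, and Fer1l6, Fer1l5 and Fer1l4 were under 1 CPM in every mouse.

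Dysf and Myof, the dysferlin and myoferlin genes, also had lower means in the deficient brains, on far fewer counts than Otof. Dysf had 118, 111 and 112 counts in deficient mice 1, 2 and 3, against 150, 142 and 157 in wild-type mice 1, 2 and 3. That was 5.27, 4.51 and 5.48 CPM in deficient mice, against 6.66, 7.69 and 6.57 CPM in wild-type mice. The genotypes did not overlap for Dysf, whose mean was 5.09 ± 0.513 CPM in deficient and 6.97 ± 0.624 CPM in wild-type mice (SD, n = 3 each). The log2 fold change was -0.45 (SE 0.13), or 73.0% of the wild-type level. Non-overlap in this direction was seen in 825 of the 15030 tested genes, 5.49%, against which 2 of the 3 tested ferlins can be set, although the family was picked from this comparison and nothing is read from that count.

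Myof had 99, 142 and 130 counts in deficient mice 1, 2 and 3, against 170, 125 and 152 in wild-type mice 1, 2 and 3. In CPM these were 4.42, 5.76 and 6.37 in deficient mice, against 7.54, 6.77 and 6.36 in wild-type mice. Deficient mouse 3 and wild-type mouse 3 had nearly the same level, and deficient mouse 1 was the lowest of all. Myof averaged 5.52 ± 0.997 CPM in deficient and 6.89 ± 0.602 CPM in wild-type mice (SD, n = 3 each). The log2 fold change was -0.32 (SE 0.14), or 80.0% of the wild-type level. Without deficient mouse 1 it was -0.19, and over 12 alternatives it ran from -0.43 to -0.19. Dysf ran from -0.51 to -0.37 over the same alternatives. For comparison, 447 of the genes tested, 2.97%, had a log2 fold change as low as that of Myof or lower.

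The other 3 ferlins were near the limit of detection and did not pass the filter on low counts. Fer1l6 had 16, 4 and 10 counts in deficient mice 1, 2 and 3, against 4, 7 and 10 in wild-type mice 1, 2 and 3. Fer1l5 had 5, 9 and 4 counts in deficient mice, against 7, 3 and 4 in wild-type mice. Fer1l4 had 2, 0 and 0 counts in deficient mice, against 1 in each wild-type mouse. The genotypes overlapped for each of the 3, and no change of their levels was detectable at this depth. With no filter on low counts, edgeR gave a log2 fold change of 0.46 (SE 0.49) for Fer1l6 and 0.29 (SE 0.56) for Fer1l5, both smaller than their errors. Both groups of Fer1l4 were at or under a floor of 3 counts, so no fold change is given.

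Per length of transcript, Otof was the most abundant ferlin in brain by a wide margin. In CPM per kilobase of exon, it stood at 2.53 ± 0.242 in deficient and 3.74 ± 0.145 in wild-type mice (SD, n = 3 each). Dysf followed at 0.611 ± 0.0616 in deficient and 0.837 ± 0.0750 in wild-type mice, and Myof at 0.438 ± 0.0791 in deficient and 0.547 ± 0.0477 in wild-type mice. Over all 6 mice the levels of Dysf and Myof overlapped, with 0.541 to 0.923 for Dysf and 0.351 to 0.599 for Myof, while the lowest Otof level was 2.38. Within each genotype Dysf lay above Myof without overlap. That order depends on the length used, since the annotated exons of Myof cover 12603 bases and its longest transcript 7094. Per kilobase of the longest transcript, the means of Dysf and Myof were 0.748 and 0.778 in deficient and 1.02 and 0.971 in wild-type mice, with ranges that overlapped in both genotypes.

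The low members followed far below. Fer1l6 ran from 0.0202 to 0.0887 CPM per kilobase of exon and Fer1l5 from 0.0256 to 0.0575 over the 6 mice, so their order cannot be given. Fer1l4, with at most 0.0129, was below both. Otof itself was a transcript of middling level, above 43.1% of the tested genes per kilobase of exon in wild-type brain. Dysf was above 18.4% and Myof above 13.2% of them.

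**Figure D2:**
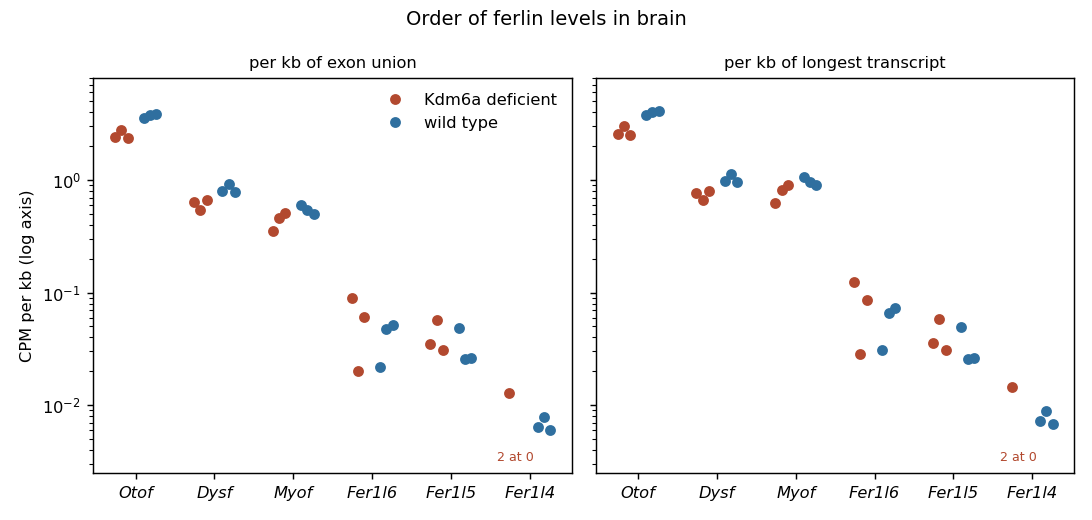
CPM per kilobase (y axis, log scale) of the 6 ferlins, per kilobase of all annotated exons (left panel) and of the longest transcript (right panel). Points are mice, Kdm6a deficient left of wild type for each gene, and the 2 deficient mice without Fer1l4 counts are noted at the bottom. Otof lay above Dysf and Myof, and those above Fer1l6, Fer1l5 and Fer1l4, with either length.

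Otof made up most of the ferlin transcript in every mouse. The sum over the family did not overlap between genotypes, but it largely restates Otof, which was chosen from this comparison. Summed over the 6 genes, the level was 3.52, 3.89 and 3.63 CPM per kilobase of exon in deficient mice 1, 2 and 3, against 5.05, 5.32 and 5.24 in wild-type mice 1, 2 and 3. Otof accounted for 68.2%, 72.3% and 65.5% of that sum in deficient mice, against 70.8%, 71.0% and 73.7% in wild-type mice, and these shares overlapped. The ratio of Otof to Myof per kilobase overlapped as well, with 6.86, 6.14 and 4.71 in deficient mice and 5.97, 7.03 and 7.65 in wild-type mice. The mice did not rank alike for the tested members within a genotype. Relative to the wild-type mean, log2 CPM in deficient mice 1, 2 and 3 was -0.63, -0.41 and -0.65 for Otof and -0.40, -0.62 and -0.34 for Dysf. Deficient mouse 2 was therefore the highest of its genotype for Otof and the lowest for Dysf. For Myof the same values were -0.63, -0.25 and -0.11.

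The transcripts most like Otof over the mice were found by correlation. Likeness was measured as Pearson's r of log2 CPM with Otof over the 6 mice, among 13830 genes with a mean of at least 1 CPM, and takes in the difference between genotypes. It was highest for Ppp1r12b, a regulatory subunit of myosin phosphatase, at 0.996. The Golgi membrane protein gene Golm1 stood at 0.994. Spata13, an exchange factor for small GTPases, and Wdr48, a cofactor of deubiquitinases, followed at 0.993 and 0.991. The differences of these genes between genotypes were smaller than that of Otof, with log2 fold changes from -0.22 (SE 0.07) for Spata13 to -0.08 (SE 0.05) for Ppp1r12b, and none of those named was past 5% FDR by edgeR. Golm1 had 34.4, 35.8 and 33.6 CPM in deficient mice 1, 2 and 3, against 39.2, 40.1 and 41.0 CPM in wild-type mice 1, 2 and 3, so the mice of each genotype ranked as they did for Otof. In all, 82 of the 13830 genes reached an r of 0.9. The genes named are the highest of 13830 values, each over only 6 mice. Whether genes unrelated to Otof would reach such values as often was not tested. Kdm6a ranked 17th with 0.960, Dysf stood at 0.776 (rank 475) and Myof at 0.667 (rank 999).

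Genes around Otof on chromosome 5 centred on no difference. Of 40 annotated genes within 500 kb, 20 were tested, and by edgeR 0 passed 5% FDR and 0 had an unadjusted p under 0.05, and DESeq2 and limma-voom called 0 of them. Their log2 fold changes had a median of 0.01, and 9 were negative and 11 positive, where 49.2% of all tested genes stood below 0. Drc1, a dynein regulatory complex gene of motile cilia, ends 367 bases from the end of Otof and runs towards it. It had 282, 275 and 242 counts in deficient mice 1, 2 and 3, against 247, 275 and 372 in wild-type mice 1, 2 and 3. The genotypes overlapped, and its log2 fold change, -0.22 (SE 0.12), was the lowest of the 20, with an edgeR adjusted p of 0.886. Selenoi, a phospholipid-synthesis enzyme gene 94635 bases away on the same side, stood at -0.08 (SE 0.05). The nearest tested gene with a known product on the other side, the potassium channel gene Kcnk3 at 126238 bases, stood at 0.06 (SE 0.06).

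**Figure D3:**
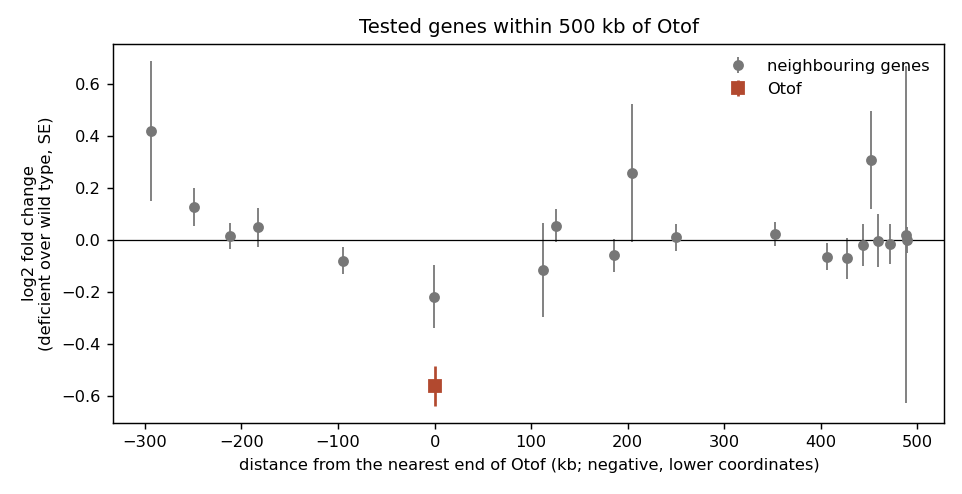
Log2 fold change, Kdm6a deficient over wild type (y axis, bars give the SE), of Otof and the 20 tested genes within 500 kb of it, by distance from the nearest end of Otof in kb (x axis). The neighbours had a median of 0.01, and Drc1, beside Otof, was at -0.22.

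Other genes of calcium-triggered membrane fusion were set beside the ferlins as lists. Over 5 pathway lists with 104 tested genes, 0 passed 5% FDR by edgeR and 0 by limma-voom, and 14 had an unadjusted edgeR p under 0.05, where 5.86% of all genes tested did. DESeq2 called 1, the C2-domain gene Rims3, and none of the other lists held a call by any of these tools. The median log2 fold change of the 104 was -0.02, against 0.00 for all genes tested.

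Synaptotagmins, the calcium sensors of most brain synapses, had a median close to 0. Of 16 tested, 11 stood below 0 and 5 above, where 49.2% of all tested genes stood below, around a median log2 fold change of -0.01. By edgeR 0 passed 5% FDR, and 3 had an unadjusted p under 0.05, where 5.86% of all tested genes did. All deficient mice were below all wild-type mice for 2 of the 16, Syt17 and Syt14, where 5.49% of all tested genes were. Syt17 stood at -0.26 (SE 0.06, edgeR adjusted p = 0.338), with 594, 618 and 557 counts in deficient mice, against 725, 569 and 755 in wild-type mice. Syt14 stood at -0.18 (SE 0.06) and Syt12 at -0.18 (SE 0.07). Syt17, Syt14 and Syt12 are members without a clear calcium-sensing role. SNARE proteins and their regulators, which form and drive the fusion machine, had log2 fold changes of -0.10 to 0.06, with a median of -0.00, 13 negative and 13 positive. The smallest unadjusted p values among them belonged to Stx1a, syntaxin 1A, at -0.10 (SE 0.06), and to the SNARE regulators Stxbp5 and Cplx2, both at -0.06 (SE 0.05).

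Among other proteins with several C2 domains, negative differences outnumbered positive ones, and 0 passed 5% FDR by edgeR. Of 24 tested genes, 18 stood below 0 and 6 above, where 49.2% of all tested genes stood below, around a median log2 fold change of -0.07. Of these, 8 had all deficient mice below all wild-type mice and 2 had them above, where 5.49% and 5.7% of all tested genes did. An unadjusted edgeR p under 0.05 was seen for 8, where 5.86% of all tested genes had one. The log2 fold changes ran from -0.76 (SE 0.25) for Unc13d, on 28 to 61 counts per mouse, to 0.47 (SE 0.28) for Doc2g. Rims3, an active zone protein gene, averaged 309.5 ± 1.85 CPM in deficient and 353.7 ± 2.39 CPM in wild-type mice (SD, n = 3 each), or -0.19 as a log2 fold change (SE 0.04), with an edgeR adjusted p of 0.202. By DESeq2 its adjusted p was 0.0214, and over 12 alternatives it ran from 0.0214 to 0.844. Sytl2, a Rab27 effector, stood at -0.24 (SE 0.06, edgeR adjusted p = 0.356) and Rph3a, rabphilin, at -0.15 (SE 0.04, edgeR adjusted p = 0.539). Summed over the list, the level was 2802 to 2866 CPM in deficient and 2965 to 3006 CPM in wild-type mice, without overlap. The sum leans on abundant members and does not describe each gene. Rph3a, the highest, averaged 522.0 CPM in deficient and 578.0 CPM in wild-type mice, while Cadps averaged 393.5 and 391.2 CPM.

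**Figure D4:**
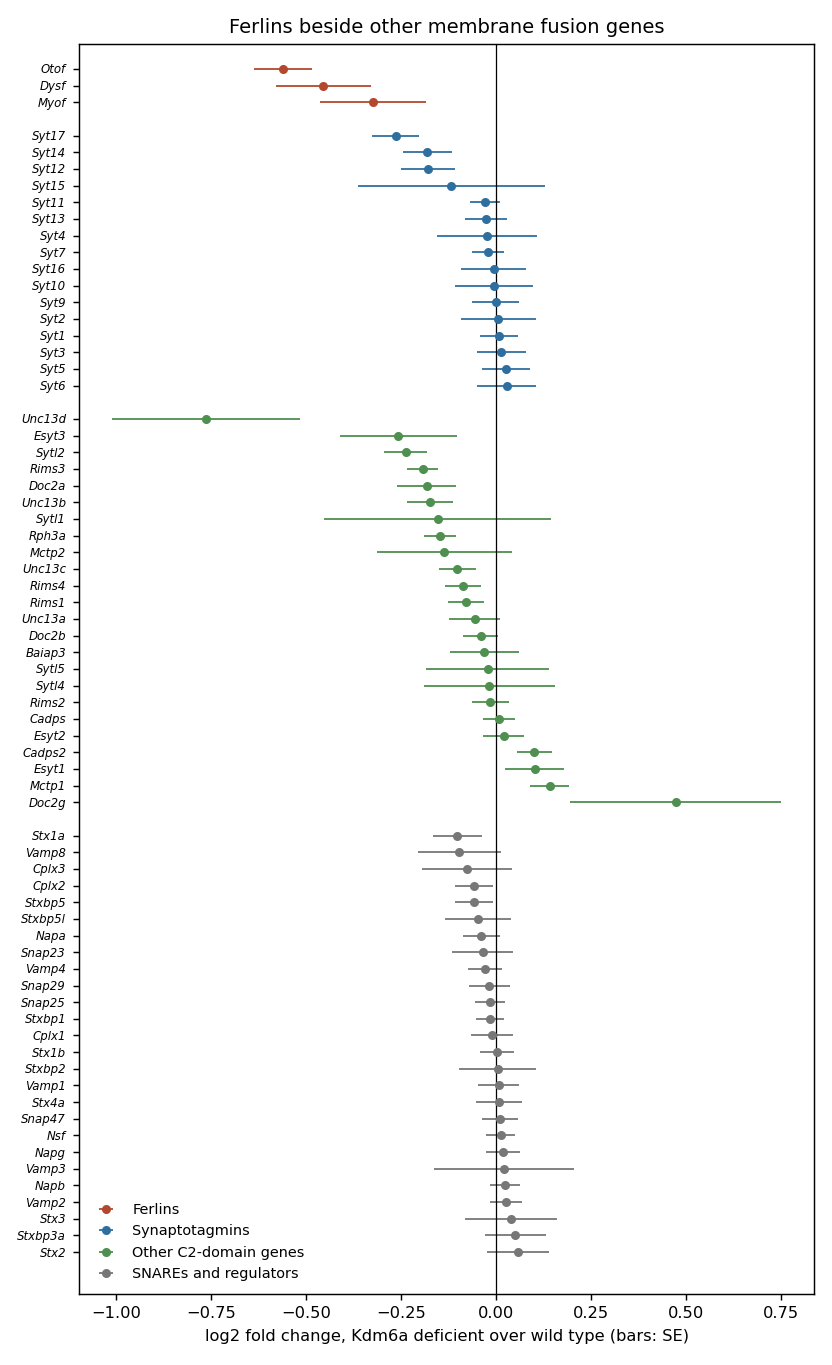
Log2 fold change, Kdm6a deficient over wild type (x axis, bars give the SE), of the 3 tested ferlins and of synaptotagmins, other C2-domain genes and SNARE genes, sorted within each group. Otof, Dysf and Myof stood at -0.56, -0.45 and -0.32. The SNARE genes kept between -0.10 and 0.06, and the other C2-domain genes ran from -0.76 (Unc13d) to 0.47 (Doc2g).

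Partners of otoferlin and genes of the hair cell ribbon synapse also had values close to 0. Of 16 tested, 9 stood below 0 and 7 above, where 49.2% of all tested genes stood below, around a median log2 fold change of -0.01. All deficient mice were below all wild-type mice for 0 and above for 2, where 5.49% and 5.7% of all tested genes were. By edgeR 0 passed 5% FDR, and 1 had an unadjusted p under 0.05, where 5.86% of all tested genes did. That gene, Asna1, which encodes the ATPase that inserts tail-anchored proteins such as otoferlin into membranes, stood at 0.14 (SE 0.05, edgeR adjusted p = 0.731). Rimbp2, a binding protein of active zones, stood at -0.11 (SE 0.05) and Cdc42, a small GTPase, at 0.08 (SE 0.04). Genes of membrane repair, the setting in which dysferlin and myoferlin act in muscle, stood below 0 in 11 and above in 12 of 23 tested, around a median log2 fold change of 0.02. All deficient mice were below all wild-type mice for 4 of the 23, Capn3, Anxa6, Trim72 and Capn1, where 5.49% of all tested genes were, and above for 0. By edgeR 0 passed 5% FDR, and 2 had an unadjusted p under 0.05, where 5.86% of all tested genes did. These were Capn3, a muscle calpain that binds dysferlin, at -0.34 (SE 0.14), and Anxa6, a membrane-binding annexin, at -0.12 (SE 0.05). Trim72, which nucleates repair patches in muscle, stood at -0.54 (SE 0.34) on 8 to 17 counts.

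Cell type markers were summed in each mouse and set beside the ferlins. Upper-layer cortical markers summed to 1212 to 1337 CPM in deficient and 1216 to 1320 CPM in wild-type mice. Of the 12, 9 were lower in mean, around a median log2 fold change of -0.03, where 49.2% of all tested genes stood below 0. Of these, 3 had all deficient mice below all wild-type mice, where 5.49% of all tested genes did, and an unadjusted edgeR p under 0.05. They were Plxnd1 at -0.17 (SE 0.05), Rasgrf2 at -0.14 (SE 0.05) and Cux2 at -0.11 (SE 0.05), while Mef2c, the largest part of the sum, stood at 0.09 (SE 0.07). Hippocampal markers summed to 693.1 to 737.4 CPM in deficient and 686.6 to 745.8 CPM in wild-type mice. Endothelial markers, of cells in which Myof is known to act, summed to 313.8 to 329.8 CPM in deficient and 294.6 to 342.5 CPM in wild-type mice. Fibroblast markers summed to 212.1 to 265.0 CPM in deficient and 211.1 to 241.5 CPM in wild-type mice. The ranges of both genotypes overlapped for each of these lists, and for deep-layer, striatal, microglial, astrocyte, oligodendrocyte and choroid plexus markers. Cerebellar markers also overlapped, with sums of 1176 to 1448 CPM in deficient and 1081 to 1237 CPM in wild-type mice. All 12 of their log2 fold changes were positive (median 0.20), where 49.2% of all tested genes stood below 0. In the other marker lists, 1 microglial marker had all deficient mice below all wild-type mice. All deficient mice were above for 3 cerebellar, 2 endothelial, 1 astrocyte and 1 choroid plexus marker, where 5.7% of all tested genes were. Of 127 tested markers, 0 passed 5% FDR by edgeR, DESeq2 or limma-voom, and 12 had an unadjusted edgeR p under 0.05, where 5.86% of all tested genes did, with 5 of the 12 cerebellar and 3 upper-layer. The part of cell or region makeup in the ferlin values was not tested.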

How the data were processed

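Brain RNA of 6 mice was sequenced from Illumina TruSeq libraries after Qiagen RNeasy extraction, per the labels' protocols. The authors deposited raw read counts per gene, used here for every test, and a DESeq2 results table with signal values (mean normalized counts), log2 fold changes of wild type over deficient, test statistics as scores, and p-values. GRCm38 and DESeq2 are named in the submitters' processing notes. The sources used here do not give the aligner, counting settings, strand use or annotation version, so reads from antisense overlaps cannot be told apart.

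Counts were tested with edgeR 4.0.16 in R 4.3.3 by the quasi-likelihood test (filterByExpr, TMM, design of genotype alone, 3 mice each), with Benjamini-Hochberg adjustment over 15030 genes at 5% FDR. Libraries held 18542590 to 24531408 counts, and no pair of mice agreed within sampling noise. Genotype means and SDs are of TMM-scaled CPM, and log2 values use a prior count of 2. Exon lengths, transcripts and sequences come from GENCODE M21 on GRCm38. The edgeR p-values weigh the difference between genotypes against the spread between these mice, which is estimated in part from all genes. Alternatives were DESeq2 1.42.0, limma-voom 3.58.1, DESeq2-type (RLE) size factors, other filters, a replicate block and leaving out each mouse.

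The members and gene lists were chosen with earlier results of these data known. The genes named are the 6 ferlins, Kdm6a, the 5 genes most like Otof (1 of which is not reported here), the 3 genes of smallest p per pathway list, and neighbours and markers that give context. The script was also tested on simulated data.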

Additional observations from a re-analysis of the deposited data

How the results depend on the processing

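The log2 fold changes of Otof, Dysf and Myof were below 0 under all 12 alternatives. These refit the same mice from which the family was chosen and are no separate support. For Otof and Dysf, whose genotypes did not overlap, leaving out a mouse could not turn the sign. With each mouse left out in turn, the log2 fold change of Otof ran from -0.64 to -0.52 and that of Kdm6a from -0.55 to -0.46. Without wild-type mouse 2 neither Otof (edgeR adjusted p = 0.0557) nor Kdm6a (-0.51) was past 5% FDR. Of all genes, 7 passed 5% FDR, against 25 with no filter on low counts, 20 by DESeq2 and 3 to 17 with each mouse left out (3 without wild-type mouse 2, 12 without deficient mouse 1, 15 without deficient mouse 3 and 17 without wild-type mouse 3). The replicate block gave 15, with Otof at -0.56, but mice of the same number did not deviate together (correlations of 0.00, 0.08 and 0.05 for mice 1, 2 and 3), so the numbers are not taken as pairs. Of the pathway lists, 0 genes passed by edgeR and 1 by DESeq2. Depth limits Fer1l4, Fer1l5 and Fer1l6, at 0 to 16 counts per mouse. The causes were not tested.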
